A study of Mus musculus with 12 samples.

Results

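The 10 genes described here mark or direct the trophoblast, the lineage that builds the placenta, and were followed in mouse R1 embryonic stem cells with and without a knockdown of Set. The members were the transcription factor genes Gata2, Gata3, Cdx2, Eomes, Elf5, Tfap2c, Tead4 and Hand1 and the marker genes Plac1 and Krt7. They were chosen by symbol, as 10 of the 19938 genes on the array that had a probe set with 1 gene symbol. Each member had 1 such probe set, and 0 of the members shared a probe set with another symbol. A gene-array value here is a log2 intensity, so a step of 1 is a doubling. Values of different probe sets are not comparable as levels, and each gene is compared with itself.

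The groups, with 2 arrays each, were RA KD1, RA KD2, RA Scrambled, ESC KD1, ESC KD2 and ESC Scrambled. KD1 and KD2 are knockdown lines of Set, which encodes a histone chaperone and inhibitor of the phosphatase PP2A, and Scrambled cells carry a scrambled control infection. All were R1 cells on gelatin. ESC cells grew in 15% serum with 1000 U/ml of leukemia inhibitory factor (LIF). RA cells spent 4 days in 1 µM retinoic acid and 10% serum without LIF, so retinoic acid, serum and LIF changed together. The labels call the knockdown and control cells clones. KD1, KD2 and Scrambled are 1 line each, so knockdown and line cannot be told apart, and p-values cover only how far arrays of 1 line lie from each other.

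Array medians lay between 7.17 and 7.24 log2 units. By probe set 10470893, which covers Set together with BC085271, KD1 stood at 48.1% of scrambled in RA (limma adjusted p = 0.000247) and at 58.2% in ESC (adjusted p = 0.00513). KD2 stood at 66.6% in RA and 62.9% in ESC with 10 arrays and at 73.7% and 57.1% with 12. The KD2 values with 12 arrays did not pass (limma adjusted p = 0.298 in RA and 0.074 in ESC). Those with 10 arrays rest on 1 KD2 array per state, and the value in RA did not pass there either. The 2 dimmer probe sets of Set alone were not called for KD1 (118% and 107% of scrambled in RA, 80.3% and 66.3% in ESC). In KD2 with 10 arrays they stood at 118% and 116% of scrambled in RA and at 101% and 95.8% in ESC. The arrays labelled RA KD2 replicate 2 and ESC KD2 replicate 2 stood apart from their labels. Over all genes, each had a mean correlation of 0.952 with arrays of its own labelled state and of 0.986 with those of the opposite state. KD1 and scrambled cells were therefore compared in a fit of their own 8 arrays, which these 2 arrays do not enter. The KD2 comparisons are given with all 12 arrays and again with 10 arrays, without these 2.

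In the mouse embryo, TEAD4 acts early in the outer cells and activates Cdx2 and Gata3, while OCT4 in the inner cells represses Cdx2. CDX2, EOMES, ELF5 and TFAP2C then keep trophoblast stem cells in self-renewal, and GATA2, GATA3 and HAND1 act in their differentiation. Several of these factors also serve other tissues: Eomes in mesoderm and endoderm, Hand1 in heart and lateral mesoderm, Cdx2 in the gut and tail bud, Gata2 in blood and Gata3 in T cells and several epithelia. A rise of 1 of them alone therefore does not name a cell type.

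The members did not move as a block on RA. Gata2, Gata3, Plac1 and Krt7 were higher in RA than in ESC in both KD1 and scrambled cells. Tfap2c was lower in RA in both, and Eomes was lower in scrambled cells. Cdx2 and Elf5 were not called in either line. Tead4 was higher in KD1 than in scrambled cells in both states. In scrambled cells 6 of the 10 members passed at an adjusted p below 0.05 (4 higher, 2 lower), where 42.6% of all 19938 genes passed, 21.7% higher and 20.8% lower. In KD1 cells 6 passed (5 higher, 1 lower), against 41.0% of all genes, 20.3% higher and 20.8% lower. With so many genes called, these counts are not far from the background. The median over the members was 0.30 in KD1 and 0.17 in scrambled cells, against -0.08 and -0.04 for all genes.

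**Figure D1:**
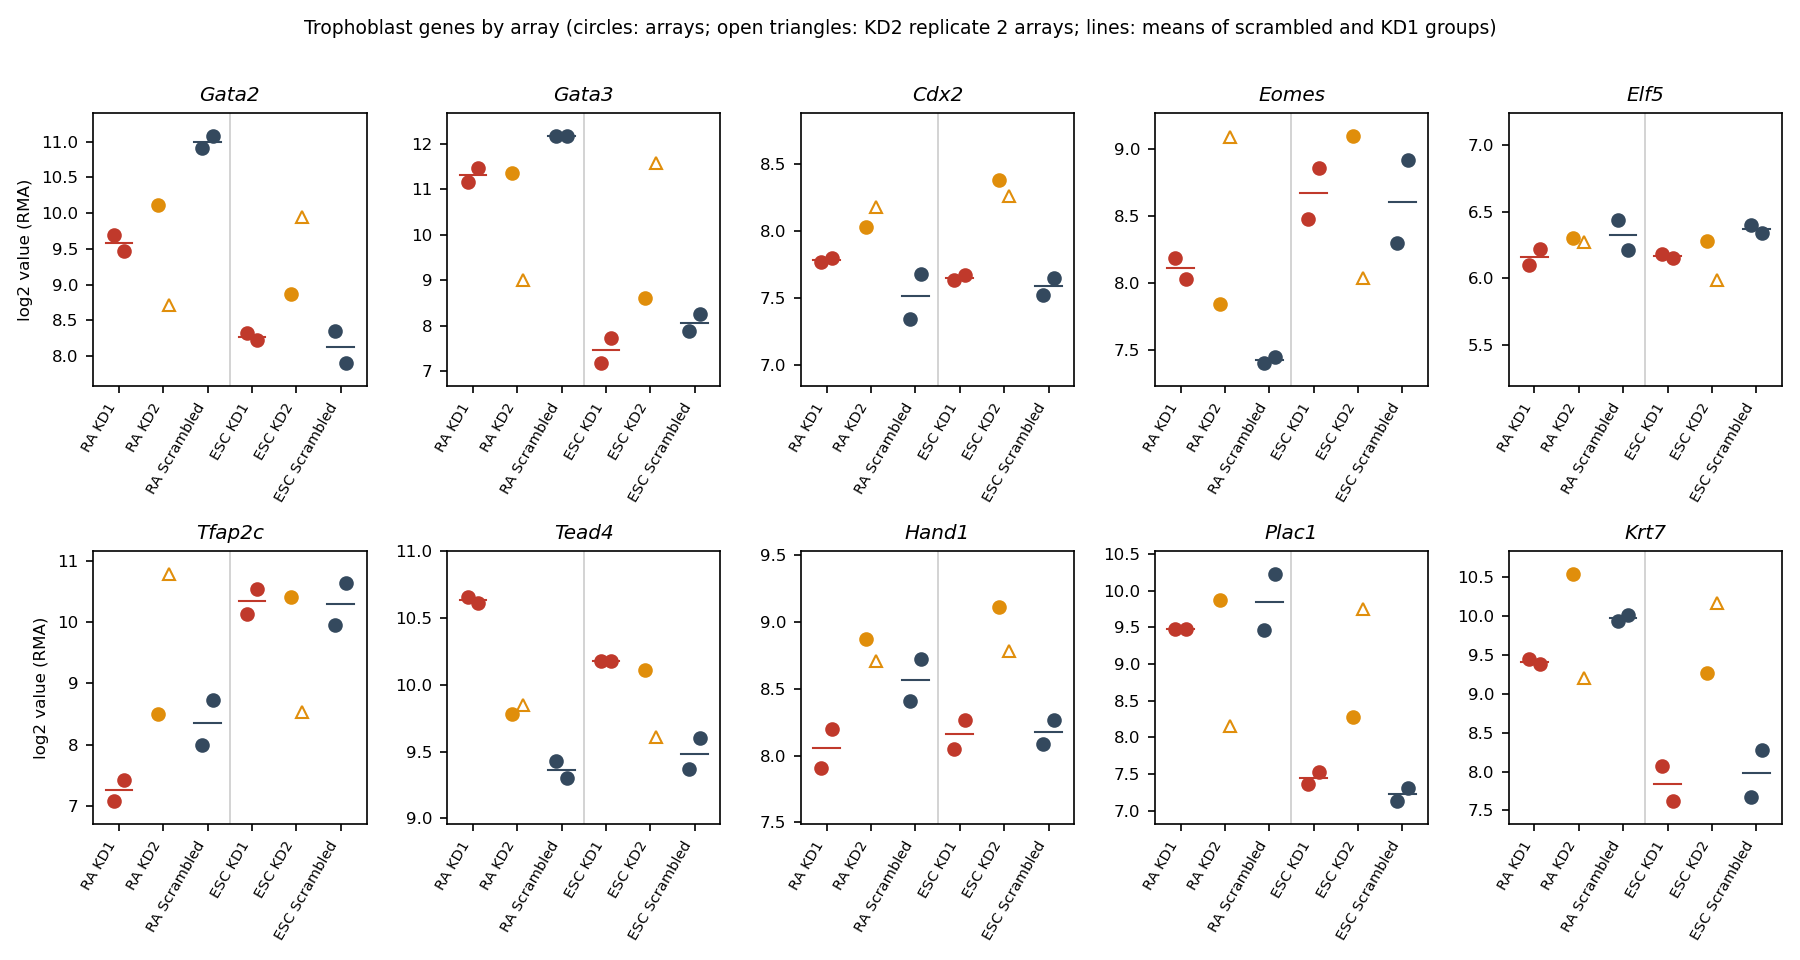
Each panel shows the log2 value of 1 gene on every array, with RA groups left of the line and ESC groups right of it. Circles are arrays, open triangles are the KD2 replicate 2 arrays, and short lines are the means of the KD1 and scrambled groups. Gata3 lies between 11.17 and 12.17 on the RA KD1 and RA Scrambled arrays and between 7.18 and 8.26 on the ESC KD1 and ESC Scrambled arrays. The KD2 triangle labelled RA (9.0) lies below the one labelled ESC (11.57).

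Gata3, a zinc-finger factor that promotes trophoblast fate, had the widest span of the members, 4.99 log2 units over the 12 arrays. It read 11.17 and 11.47 in RA KD1 and 12.16 and 12.17 in RA Scrambled, against 7.18 and 7.74 in ESC KD1 and 7.88 and 8.26 in ESC Scrambled. All RA arrays of these lines lay above all of their ESC arrays. RA over ESC was 14.5-fold in KD1 (log2 3.86, SE 0.20, adjusted p = 2.06e-06) and 17.1-fold in scrambled cells (log2 4.10, SE 0.20, adjusted p = 1.41e-06). These responses differed by -0.24 (95% interval -0.89 to 0.42, interaction adjusted p = 0.752). In bulk RNA, more cells with Gata3 and more Gata3 RNA per cell cannot be told apart, and this holds for each gene below.

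Gata2, the other trophoblast GATA factor, rose less in KD1 than in scrambled cells. Its values were 9.70 and 9.47 in RA KD1 and 10.91 and 11.08 in RA Scrambled, against 8.32 and 8.22 in ESC KD1 and 8.35 and 7.90 in ESC Scrambled. The RA arrays of the lines did not overlap, while the ESC arrays did. RA over ESC was 2.49-fold in KD1 (log2 1.32, SE 0.17, adjusted p = 0.000265) and 7.29-fold in scrambled cells (log2 2.87, SE 0.17, adjusted p = 3.09e-06). The difference of these responses was -1.55 (SE 0.24, 95% interval -2.09 to -1.01, adjusted p = 0.00793). Gata2 was the 1 member of 10 called by the interaction in this fit, which 4.82% of all genes passed, 2.53% with a positive and 2.29% with a negative difference. With the replicate number as a block within each state, Tfap2c, Tead4, Eomes and Hand1 passed beside Gata2, making 5 of 10 members where 14.4% of all genes passed. Without RA KD1 replicate 2 it was -1.44 with adjusted p = 0.0599.

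The promoters of the 4 members that rose in both lines are shown because these genes moved together. Each is the window of 250 bases before a RefSeq start site (GRCm38.p6), 5′ to 3′ on the gene's strand, and 7 of the 10 members had such an entry, with 10 windows in all. Capitals mark matches, on either strand, to GATAA (GATA factors), GCCNNNGGC (AP-2 factors such as TFAP2C), GGAATG (TEAD factors), AGGTCA (a site element of retinoid receptors), TTTATG (CDX factors) and AGGTGT (T-box factors such as EOMES). No matches overlapped in these windows. The upstream Gata2 window is chr6:88193641-88193890 (+), the second is chr6:88198414-88198663 (+), and that of Gata3 is chr2:9878601-9878850 (-).
Gata2 upstream: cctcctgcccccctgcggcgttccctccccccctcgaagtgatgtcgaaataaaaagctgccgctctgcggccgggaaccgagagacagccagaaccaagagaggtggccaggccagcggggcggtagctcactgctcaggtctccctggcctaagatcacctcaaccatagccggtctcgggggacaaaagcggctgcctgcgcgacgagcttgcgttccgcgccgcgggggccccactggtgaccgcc
Gata2 second: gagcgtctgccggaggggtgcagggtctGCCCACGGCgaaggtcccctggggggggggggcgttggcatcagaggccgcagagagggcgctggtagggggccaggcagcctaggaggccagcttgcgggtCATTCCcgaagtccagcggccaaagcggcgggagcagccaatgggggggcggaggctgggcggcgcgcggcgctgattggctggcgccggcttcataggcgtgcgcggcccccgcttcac
Gata3: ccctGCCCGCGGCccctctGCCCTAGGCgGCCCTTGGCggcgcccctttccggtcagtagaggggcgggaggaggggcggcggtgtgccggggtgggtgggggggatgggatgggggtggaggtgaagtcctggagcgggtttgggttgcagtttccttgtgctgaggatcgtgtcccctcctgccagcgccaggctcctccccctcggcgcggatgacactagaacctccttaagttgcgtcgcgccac

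The GATA promoters were rich in G and C, at 67.2% and 74% for the 2 Gata2 windows and 70% for Gata3, where the median of all 32851 windows was 52.4%. Their ratio of observed to expected CpG was 0.785, 0.741 and 0.633, against a median of 0.374. The Gata3 window held 3 AP-2 matches, starting at bases -246, -231 and -221 from the start site. The second Gata2 window held 1 at -222 and a TEAD match at -120, and the upstream Gata2 window held 0 matches to the 6 motifs. At least 1 AP-2 match was present in 13.7% of all windows and a TEAD match in 12.6%. Neither gene's window held GATAA, which 22.6% of windows contain.

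Plac1, an X-linked gene of the placenta, read 9.48 and 9.48 in RA KD1 and 9.47 and 10.23 in RA Scrambled, against 7.36 and 7.53 in ESC KD1 and 7.13 and 7.31 in ESC Scrambled. Every RA array of these lines was above every ESC array, and the lines overlapped in RA. RA over ESC was 4.09-fold in KD1 (log2 2.03, SE 0.22, adjusted p = 0.000101) and 6.18-fold in scrambled cells (log2 2.63, SE 0.22, adjusted p = 2.08e-05). The responses differed by -0.60 (95% interval -1.30 to 0.11, adjusted p = 0.376).

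Krt7, a keratin of simple epithelia including the trophoblast, read 9.44 and 9.38 in RA KD1 and 9.94 and 10.01 in RA Scrambled, against 8.07 and 7.62 in ESC KD1 and 7.67 and 8.28 in ESC Scrambled. Its RA arrays lay above its ESC arrays, and in RA both KD1 arrays were below both scrambled ones. It rose 2.95-fold in KD1 (log2 1.56, SE 0.21, adjusted p = 0.000396) and 4.00-fold in scrambled cells (log2 2.00, SE 0.21, adjusted p = 8.3e-05). The interaction was -0.44 (95% interval -1.12 to 0.24, adjusted p = 0.523).

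The windows of these 2 markers are shown beside the GATA promoters to set a CpG-poor gene next to a CpG-richer one. Those of Plac1 are chrX:53240111-53240360 (-), upstream, and chrX:53114406-53114655 (-), and that of Krt7 is chr15:101412153-101412402 (+).
Plac1 upstream: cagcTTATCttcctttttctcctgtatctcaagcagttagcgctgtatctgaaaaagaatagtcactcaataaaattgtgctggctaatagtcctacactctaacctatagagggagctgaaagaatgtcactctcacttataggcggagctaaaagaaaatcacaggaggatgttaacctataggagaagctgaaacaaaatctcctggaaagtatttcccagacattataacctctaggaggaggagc
Plac1 second: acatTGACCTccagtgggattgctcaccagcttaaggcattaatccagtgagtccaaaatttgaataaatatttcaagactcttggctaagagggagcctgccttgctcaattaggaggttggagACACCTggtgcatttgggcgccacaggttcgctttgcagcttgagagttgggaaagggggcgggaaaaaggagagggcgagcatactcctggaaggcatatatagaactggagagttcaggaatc
Krt7: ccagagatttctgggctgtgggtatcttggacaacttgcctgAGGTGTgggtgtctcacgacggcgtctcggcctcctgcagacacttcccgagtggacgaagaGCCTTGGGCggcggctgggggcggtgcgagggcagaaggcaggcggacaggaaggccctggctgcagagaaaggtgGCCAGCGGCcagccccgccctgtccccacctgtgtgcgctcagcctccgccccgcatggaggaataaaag

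The CpG ratio was 0.196 and 0.284 in the Plac1 windows and 0.596 in the Krt7 window. A GATAA match stood at -246 in the upstream Plac1 window, and the second held a retinoid receptor element at -246 and a T-box match at -125. Krt7 held AP-2 matches at -146 and -70 and a T-box match at -208. Retinoid receptor elements were present in 14% of all windows, T-box matches in 11.8% and CDX matches in 10.8%. Over the 10 member windows, 4 held an AP-2 match, 3 a T-box match, 2 each a GATAA and a TEAD match, and 1 each a retinoid receptor element and a CDX match. The genes that rose thus shared no single one of the 6 motifs, and these matches are letters in a window, not binding sites.

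Tfap2c, which encodes AP-2 gamma and is used by trophoblast stem cells as well as by germ cells and stem cells, was lower in RA than in ESC. Its array values were 7.08 and 7.43 in RA KD1 and 7.99 and 8.73 in RA Scrambled, against 10.14 and 10.54 in ESC KD1 and 9.95 and 10.64 in ESC Scrambled. All RA arrays of these lines lay below all ESC arrays, and in RA the KD1 arrays lay below the scrambled ones. RA against ESC was -3.09 in KD1 (SE 0.29, 8.49-fold lower, adjusted p = 4.69e-05) and -1.93 in scrambled cells (SE 0.29, 3.82-fold lower, adjusted p = 0.000656). The interaction, -1.15 (SE 0.41, 95% interval -2.09 to -0.21, adjusted p = 0.181), did not pass, although it did with the replicate block (adjusted p = 0.00215).

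Eomes, a T-box factor of trophoblast stem cells and of early mesoderm and endoderm, read 8.19 and 8.03 in RA KD1 and 7.40 and 7.45 in RA Scrambled, against 8.48 and 8.86 in ESC KD1 and 8.30 and 8.92 in ESC Scrambled. The RA arrays lay below the ESC arrays in both lines. The difference was -0.56 in KD1, which did not pass (SE 0.21, adjusted p = 0.0584), and -1.19 in scrambled cells (SE 0.21, 2.28-fold lower, adjusted p = 0.00154). That of KD1 passed with the replicate block (adjusted p = 0.00202), and without ESC KD1 replicate 1 (-0.75, adjusted p = 0.0481) or without either ESC Scrambled array (adjusted p = 0.0134 and 0.0133). The interaction was 0.63 (95% interval -0.04 to 1.29, adjusted p = 0.322) and passed with the replicate block (adjusted p = 0.0277).

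Cdx2, the homeobox factor that specifies the trophectoderm, stayed within a span of 1.04 log2 units. It read 7.77 and 7.80 in RA KD1 and 7.34 and 7.68 in RA Scrambled, against 7.63 and 7.67 in ESC KD1 and 7.52 and 7.65 in ESC Scrambled. The RA arrays lay above the ESC arrays in KD1 and overlapped them in scrambled cells. RA against ESC was 0.14 in KD1 (95% interval -0.17 to 0.44, adjusted p = 0.441) and -0.08 in scrambled cells (95% interval -0.38 to 0.23, adjusted p = 0.697). Both intervals exclude a change as large as that of Gata2 in either line.

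Elf5, an ETS factor of trophoblast stem cells whose promoter is known to be methylated in mouse embryonic stem cells, lay between 5.99 and 6.44 on all 12 arrays. That is below 7.22, the median of all values, on every array. RA against ESC was 0.00 in KD1 (95% interval -0.25 to 0.24) and -0.04 in scrambled cells (95% interval -0.29 to 0.20), with adjusted p = 0.985 and adjusted p = 0.784. A dim probe set compresses differences, and these data do not separate a silent gene from a low one. The CpG ratio of its upstream window was 0.0814, lower than in any other member window, and that of its second window 0.402.

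Hand1, a helix-loop-helix factor of trophoblast giant cells and heart, read 7.91 and 8.20 in RA KD1 and 8.41 and 8.72 in RA Scrambled, against 8.05 and 8.27 in ESC KD1 and 8.09 and 8.27 in ESC Scrambled. The RA arrays overlapped the ESC arrays in KD1 and lay above them in scrambled cells. RA against ESC was -0.10 in KD1 (adjusted p = 0.649) and 0.38 in scrambled cells (95% interval 0.01 to 0.75, adjusted p = 0.0911), and neither passed. With the replicate block the response of scrambled cells passed (0.38, adjusted p = 0.00832), and so did the interaction (-0.48, adjusted p = 0.0475).

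**Figure D2:**
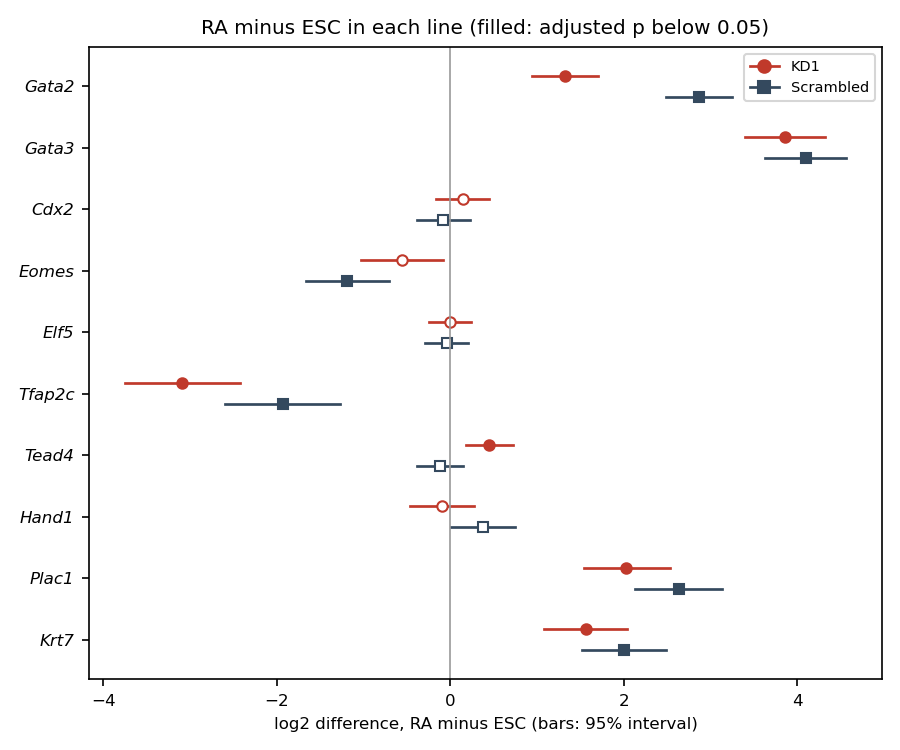
The log2 difference RA minus ESC is plotted for the 10 members, KD1 cells above scrambled cells in each pair, with 95% intervals and filled symbols where the adjusted p was below 0.05. Gata2 stands at 1.32 in KD1 and 2.87 in scrambled cells with intervals that do not touch, while those of Gata3 (3.86 and 4.10) overlap.

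Tead4, the TEAD factor that acts upstream of Cdx2 in the embryo, was higher in KD1 than in scrambled cells in both states, with KD2 between them. It read 10.66 and 10.61 in RA KD1, 9.78 and 9.85 in RA KD2 and 9.43 and 9.30 in RA Scrambled. In ESC it read 10.18 and 10.18 in KD1, 10.11 and 9.61 in KD2 and 9.37 and 9.60 in Scrambled. All 4 scrambled arrays (9.30 to 9.60) lay below all 8 knockdown arrays (9.61 to 10.66), although only just below the array labelled ESC KD2 replicate 2. Lying wholly below the other arrays in this way was seen in 67 of 19938 genes, or 0.336%. All 4 KD1 arrays lay above the other 8, as in 0.777% of genes. These orders do not depend on the state of the 2 displaced KD2 arrays, and they were noticed after the values were seen, so they carry no test.

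In the fit of 8 arrays Tead4 was 2.41-fold higher in KD1 than in scrambled cells in RA (log2 1.27, SE 0.12, adjusted p = 0.000261) and 1.62-fold higher in ESC (log2 0.69, SE 0.12, adjusted p = 0.0233). The ESC call was lost without ESC KD1 replicate 1 (0.69, adjusted p = 0.123), without ESC KD1 replicate 2 (0.69, adjusted p = 0.11), without ESC Scrambled replicate 1 (0.58, adjusted p = 0.0535) and without either RA KD1 array (adjusted p = 0.0732 each). RA against ESC was 0.45 in KD1 (SE 0.12, adjusted p = 0.0144), and adjusted p lay from 0.0546 to 0.0977 without any 1 of the 4 KD1 arrays. In scrambled cells it was -0.12 (adjusted p = 0.461), and the interaction of 0.58 (SE 0.17, adjusted p = 0.104) did not pass, though it did without ESC Scrambled replicate 1 (0.69, adjusted p = 0.0478) and with the replicate block (adjusted p = 0.0155).

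After RA, 3 members were lower and 1 was higher in KD1 than in scrambled cells, among 4 of 10 called, where 12.1% of all genes were called, 5.39% higher and 6.69% lower. The 3 lower ones were Gata2 (log2 -1.41, SE 0.17, 2.65-fold, adjusted p = 0.000932), Tfap2c (-1.10, SE 0.29, 2.15-fold, adjusted p = 0.041) and Gata3 (-0.85, SE 0.20, 1.80-fold, adjusted p = 0.0279). The member median was -0.44, against -0.01 for all genes. Eomes (0.69, adjusted p = 0.0683), Krt7 (-0.57, adjusted p = 0.137), Hand1 (-0.51, adjusted p = 0.0829) and Cdx2 (0.27, adjusted p = 0.262) did not pass. Plac1 (-0.37, adjusted p = 0.361) and Elf5 (-0.17, adjusted p = 0.424) did not pass either. With the replicate block Eomes (adjusted p = 0.00175) and Hand1 (adjusted p = 0.00468) passed too, making 6 of 10 where 24.1% of all genes passed. Without 1 ESC Scrambled array Eomes (adjusted p = 0.0146 and 0.0144) and Krt7 (adjusted p = 0.0404 and 0.0405) passed, and without RA Scrambled replicate 1 Plac1 did (-0.75, adjusted p = 0.0408). The call of Gata3 was lost without any 1 of the 4 RA arrays (adjusted p from 0.0931 to 0.2), and that of Tfap2c without RA KD1 replicate 1 (-0.93, adjusted p = 0.24), RA KD1 replicate 2 (-1.28, adjusted p = 0.131) or RA Scrambled replicate 2 (-0.73, adjusted p = 0.236).

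In ESC, Tead4 was the 1 member of 10 called between KD1 and scrambled cells, where 1.94% of all genes were called, 0.848% higher and 1.09% lower. Gata3 lay lower in KD1 by 0.61 without passing (95% interval -1.07 to -0.15, adjusted p = 0.194), and was called with the replicate block (adjusted p = 0.00543), by which 10.5% of all genes passed. The other 8 members stood between -0.21 for Elf5 and 0.22 for Plac1, with adjusted p from 0.396 to 0.956. The median of the members was 0.05, against 0.02 for all genes.

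**Figure D3:**
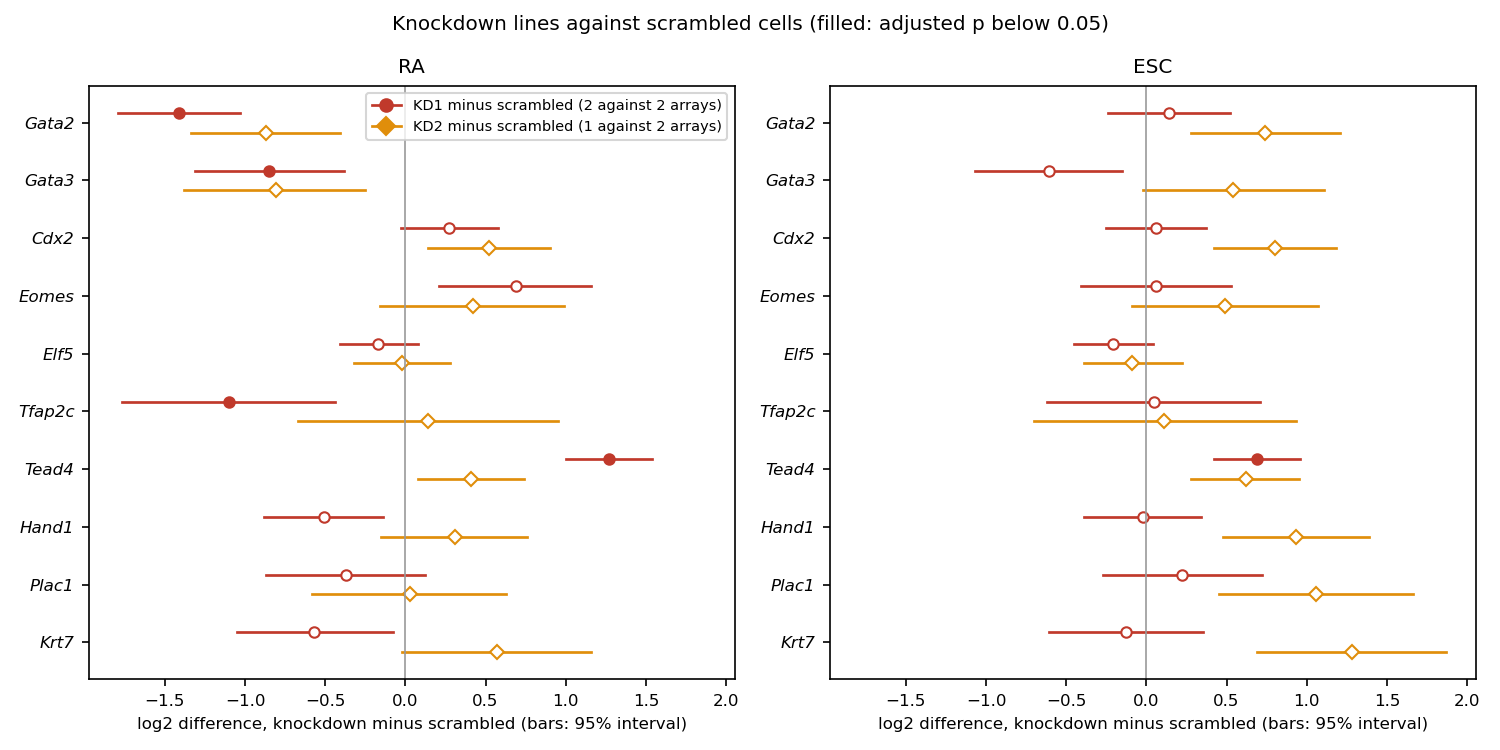
Log2 differences from scrambled cells are plotted for RA on the left and ESC on the right, KD1 (8-array fit) above KD2 (10-array fit, 1 KD2 array per state), with 95% intervals and filled symbols where the adjusted p was below 0.05. In RA, Gata2 stands at -1.41 in KD1 and -0.87 in KD2, and in ESC Krt7 stands at -0.13 in KD1 and 1.28 in KD2.

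Each labelled KD2 group holds 1 array that resembles the opposite state, and 0 of 10 members and 0 of 19938 genes passed for RA against ESC with all 12 arrays by limma (344 genes at an unadjusted p below 0.05). Gata3 read 11.36 and 9.0 in RA KD2, against 8.61 and 11.57 in ESC KD2. With 10 arrays 20.5% of all genes passed, 11.0% higher and 9.46% lower, and 6 of 10 members passed, 4 higher and 2 lower. The risen ones were Gata3 (2.74, SE 0.29, adjusted p = 0.000475), Plac1 (1.60, adjusted p = 0.00762), Gata2 (1.25, adjusted p = 0.00681) and Krt7 (1.29, adjusted p = 0.0173). Tfap2c (-1.91, adjusted p = 0.0123) and Eomes (-1.26, adjusted p = 0.0172) were lower. KD2 is then 1 array per state, assumed to vary like the other groups.

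Against scrambled cells, 0 members passed in KD2 in either state. With 12 arrays 0.271% of genes passed in RA (2590 at an unadjusted p below 0.05) and 0.0853% in ESC (2057), and with 10 arrays 0.963% (2235) and 0.988% (2359). In RA, Gata2 stood at -1.57 with 12 arrays (adjusted p = 0.274) and at -0.87 with 10 arrays (adjusted p = 0.113), and Gata3 at -1.99 (adjusted p = 0.4) and -0.81 (adjusted p = 0.224). Without RA KD2 replicate 1 alone, Gata2 was called at -2.27 (adjusted p = 0.0399), a value that rests on the displaced RA array. The other 8 members lay between -0.02 for Elf5 and 0.57 for Krt7 in RA with 10 arrays, with adjusted p from 0.244 to 0.988. Tfap2c stood at 0.14 in KD2 and -1.10 in KD1, Krt7 at 0.57 and -0.57, and Hand1 at 0.31 and -0.51, in comparisons that share their scrambled arrays. The member median in RA KD2 was 0.22 with 10 arrays and 0.09 with 12, against 0.03 and 0.04 for all genes, where that of KD1 was -0.44. In ESC the 10-array values were 1.28 for Krt7 (adjusted p = 0.0678), 1.06 for Plac1 (adjusted p = 0.135), 0.93 for Hand1 (adjusted p = 0.0811), 0.80 for Cdx2 (adjusted p = 0.0732), 0.74 for Gata2 (adjusted p = 0.17) and 0.62 for Tead4 (adjusted p = 0.106). The remaining 4 were Gata3 (0.54), Eomes (0.49), Tfap2c (0.11) and Elf5 (-0.09), with adjusted p from 0.448 to 0.952. The member median in ESC KD2 was 0.68 with 10 arrays and 0.75 with 12, against 0.01 and -0.02 for all genes.

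Cdx2 set the KD2 line apart in both states. It read 8.03 and 8.18 in RA KD2 and 8.38 and 8.26 in ESC KD2, while the 8 KD1 and scrambled arrays lay between 7.34 and 7.80. Standing wholly above the other lines in this way was seen in 41 of 19938 genes, or 0.206%. The pattern holds whichever state the 2 displaced arrays belong to, was noticed after the values were seen, and carries no test. Hand1 lay between 8.71 and 9.11 on the KD2 arrays, where the highest of the others, RA Scrambled replicate 2, was at 8.72.

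By group means, Gata2 and Gata3 ranked RA Scrambled, RA KD1, RA KD2, ESC KD2 from the top, followed by the ESC KD1 and ESC Scrambled groups. For both genes the middle ranks rest on the KD2 groups, each of which holds a displaced array. Plac1 and Krt7 also had RA Scrambled on top and ESC KD1 or ESC Scrambled at the bottom. For both markers, the place of RA Scrambled above RA KD2 rests on the displaced RA KD2 array. RA KD2 replicate 1 read 9.88 for Plac1 and 10.54 for Krt7, against RA Scrambled means of 9.85 and 9.98. For Tead4 the order was RA KD1, ESC KD1, ESC KD2, RA KD2, ESC Scrambled and RA Scrambled, with the last 2 overlapping. Its ESC KD2 and RA KD2 groups, each with a displaced array, overlapped as well. Tfap2c ran from ESC KD1 and ESC Scrambled, which overlapped, to RA KD1 at the bottom.

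Across the 12 arrays the members fell into sets by Pearson correlation, given as a description over arrays that share lines and states. Gata3 correlated at 0.966 with Plac1, 0.932 with Gata2 and 0.886 with Krt7, and at -0.842 with Tfap2c and -0.802 with Eomes. Tfap2c and Eomes correlated at 0.772 with each other, and Cdx2 and Hand1 at 0.722. The latter genes both read high on the KD2 arrays, while in RA KD1 Cdx2 lay above RA Scrambled and Hand1 below it. Tead4 lay between -0.445 and 0.313 with every other member. Similar genes were sought among 5935 that spanned at least 1 log2 unit, with members and predicted genes left out. Those most like Gata3 were Paip1 (0.997), Pde5a (0.996) and Maged2 (0.995), and those most like Gata2 were St8sia2 (0.984), Igdcc4 (0.983) and Trabd2b (0.982). Plac1 was nearest to Cdc42ep1 (0.985), Ssbp3 (0.985) and Clu (0.984), Krt7 to Mgat4b (0.972), Tapbp (0.969) and Prnp (0.968), and Tfap2c to Zcwpw1 (0.99), Cbfa2t2 (0.988) and Epp13 (0.984). For the genes with a smaller span, Eomes was nearest to Pbk (0.98), Klhl12 (0.963) and Cblc (0.956), and Tead4 to Tagln2 (0.951), Htra1 (0.947) and Atp1b1 (0.912). Hand1 reached 0.865 with Oasl2, 0.862 with Rgs2 and 0.834 with Tmcc3, and Cdx2 reached 0.872 with Bmp8b, 0.837 with Sema3e and 0.813 with Ptprz1.

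Other trophoblast genes split in the same comparisons. For RA in scrambled cells their counts stand beside the 21.7% of all genes that rose and the 20.8% that fell. Of 12 trophoblast stem cell and ectoplacental genes, 8 rose and 0 fell in RA in scrambled cells, with Satb1 (2.34), Fgfr2, the receptor through which FGF4 sustains trophoblast stem cells (2.00), and Id2 (1.18) ahead. Of 11 labyrinth and syncytiotrophoblast genes, 2 rose, Syna, the syncytin A gene (2.87), and Dlx3 (1.09), and 5 fell, the lactate transporter gene Slc16a3 (-1.59), Tfeb (-1.07), Epha4 (-0.87), Ly6e (-0.39) and Ovol2 (-0.33). Of 9 giant cell genes 2 rose, Adm (1.20) and Flt1 (0.70), and 0 fell. The placental lactogen-family and cathepsin genes Prl4a1, Prl7d1, Prl8a9, Ctsj and Cts7 lay between -0.07 and 0.15 and were not called. Prl3d1, Prl3b1 and Prl2c2 of this list and Gcm1 of the labyrinth list had no matched probe set with 1 symbol and were not read. The giant cell list averaged 5.87 to 5.98 on the ESC Scrambled arrays and 6.15 to 6.23 on the RA Scrambled arrays. That is below 7.22, the median of all values, and dim probe sets compress differences. Of 11 trophectoderm epithelial genes 5 rose, the keratin genes Krt18 (1.98), Krt8 (1.75) and Krt19 (1.65) with Dsp (1.58) and Cdh3 (0.57). The 3 that fell were Epcam (-1.34), Cdh1 (-0.59) and Atp1b1 (-0.39). List medians were 0.90, -0.33, 0.10 and 0.43 in this order, against -0.04 for all genes.

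Between KD1 and scrambled cells in RA, 5.39% of all genes were higher and 6.69% lower in KD1. There 3 of the 12 stem cell and ectoplacental genes were lower and 0 higher: Satb1 (-1.44, adjusted p = 0.00288), Rhox9 (-1.05, adjusted p = 0.0495) and Phlda2 (-0.73, adjusted p = 0.0104). Of the labyrinth genes 3 were higher in KD1, Slc16a1 (1.01), Epha4 (0.81) and Slc16a3 (0.66). The 3 lower ones were Syna (-1.59, limma adjusted p = 0.0116), Ly6e (-0.82) and Dlx3 (-0.44). In the giant cell list Flt1, a receptor for VEGF that endothelium also makes, was higher in KD1 by 3.11 (limma adjusted p = 2.57e-06) and Adm was lower by 0.97. Of the epithelial genes Atp1b1 was higher in KD1 (1.32), while Cldn4 (-1.25), Cdh3 (-1.11) and Cdh1 (-0.44) were lower. The medians of these lists were -0.29, -0.17, 0.03 and 0.03, against -0.01 for all genes.

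Relatives of the members in the same gene families moved in both directions. Of 20 relatives, 11 rose and 4 fell in RA in scrambled cells, with Gata6 (4.67), Gata5 (2.34) and Tead3 (2.21) ahead. Against the 21.7% of all genes that rose and the 20.8% that fell, the 4 of 20 are near the background. The median of the relatives was 0.68, against -0.04 for all genes. In RA, 4 relatives were higher in KD1 than in scrambled cells, Gata4 (3.0, limma adjusted p = 5.14e-06), Elf3 (1.53), Elf1 (1.36) and Gata6 (0.59). The 4 lower ones were Gata5 (-1.40, limma adjusted p = 0.0019), Tead3, Hand2 (-0.71) and Tead2. Of all genes, 5.39% were higher and 6.69% lower. In the GATA family after RA, KD1 cells thus had lower Gata2, Gata3 and Gata5 and higher Gata4 and Gata6. In the TEAD family, Tead4 was higher while Tead3 (-0.92) and Tead2 (-0.56) were lower, and Tead1 stood at 0.19 without passing. Of 13 Hippo pathway genes and TEAD targets, 9 rose in RA in scrambled cells, Lats2 (2.27), Ankrd1 (1.72) and Amot (1.61) in front, and Nf2 fell (-0.72), with a list median of 1.14. In RA, 0 of these 13 were called by limma for KD1 against scrambled cells, where 12.1% of all genes were, so a count of 0 in a list this short is near the background. At an unadjusted p below 0.05 there were 2, Ccn2 and Vgll4 (-0.52). Of these 13, Ccn2 had the largest difference (1.06, adjusted p = 0.18), and the median was -0.08, against -0.01 for all genes.

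**Figure D4:**
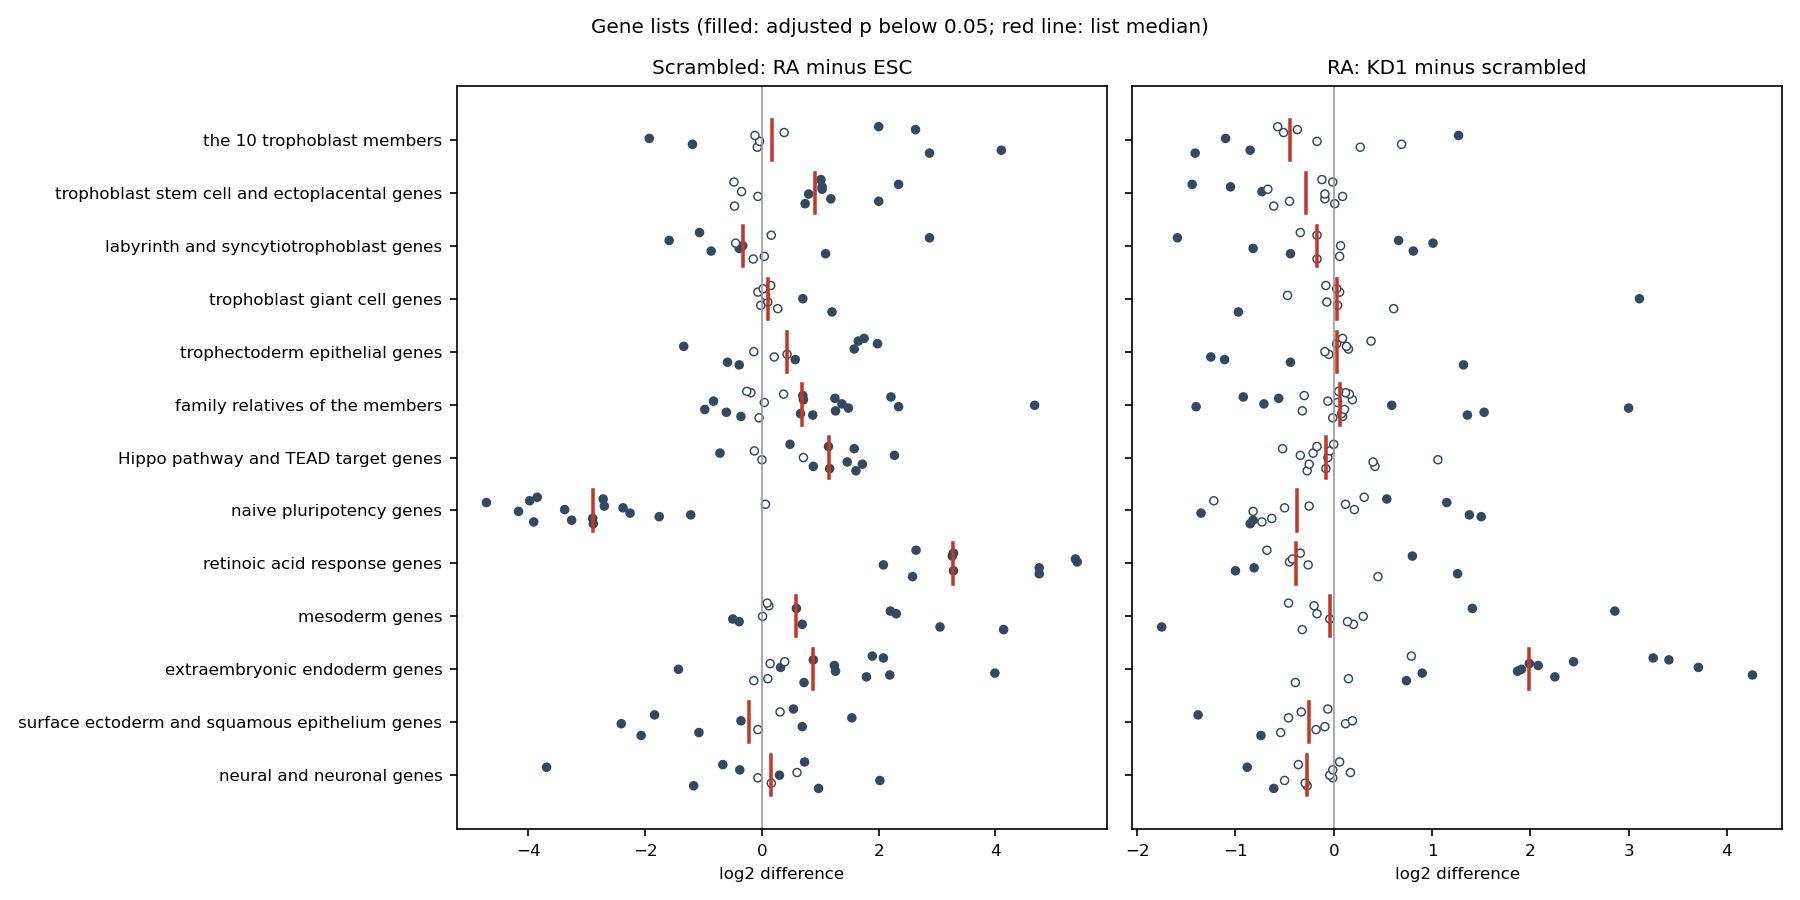
Each point is a gene of the named list, placed by its log2 difference for RA minus ESC in scrambled cells (left) or KD1 minus scrambled cells in RA (right); filled points had an adjusted p below 0.05 and red lines are list medians. The 10 trophoblast members range from -1.93 to 4.10 on the left and from -1.41 to 1.27 on the right, where the extraembryonic endoderm list has its median at 1.99.

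Markers of other cell types changed beside the members, and their counts in scrambled cells stand beside the same 21.7% of all genes that rose and 20.8% that fell. Of 16 naive pluripotency genes 15 fell and 0 rose in RA in scrambled cells, with Tcl1 (-4.72), Nr0b1 (-4.17) and Tdgf1 (-3.98) in front. Their mean log2 value per array was 8.60 to 8.83 in RA KD1 and 8.54 to 9.14 in RA Scrambled, against 11.65 to 11.80 in ESC KD1 and 11.65 to 11.79 in ESC Scrambled. Of 10 retinoic acid response genes 10 rose, Meis2 (5.40) and Rarb (5.37) among them. Of 11 mesoderm genes 6 rose and 2 fell, led by Foxf1 (4.14), Isl1 (3.05) and Msx2 (2.30), factors of lateral mesoderm among other tissues. Of 10 surface ectoderm genes 3 rose and 5 fell, with Krt17 (-2.41), Grhl2 (-2.07) and Sfn (-1.84) ahead, and of 11 neural genes 4 rose and 4 fell, with Stmn2 (-3.69), Nes (2.02) and Elavl3 (-1.17) ahead. The mesoderm genes that fell, the surface ectoderm genes that rose and the neural genes in both directions are not far from those shares. List medians were -2.90, 3.28, 0.59, -0.21 and 0.16 in this order, against -0.04 for all genes. The part of these cell types in the members' changes was not tested.

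Extraembryonic endoderm genes were called higher in KD1 than in scrambled cells in both states, most of the list after RA and a smaller share in ESC. In scrambled cells 10 of 15 such genes rose in RA, led by Dab2 (3.99), Cubn (2.19) and Srgn (2.08), and Hnf4a fell (-1.43). Of the 15 genes 12 were higher in RA KD1 than in RA Scrambled and 0 lower, with Cubn (4.26), Lama1 (3.71) and Sox7 (3.41) ahead, and their mean per array was 10.81 to 10.87 in RA KD1 and 8.76 to 9.01 in RA Scrambled. In ESC 5 of the 15 were already higher in KD1 and 0 lower, Srgn (1.80), Sox7 (1.13), Cubn (1.02), Lama1 (0.98) and Lamc1 (0.54), and their mean was 8.29 to 8.35 in KD1 and 7.83 to 7.88 in Scrambled. Of all genes, 5.39% were higher in KD1 in RA and 0.848% in ESC. The list median was 1.99 in RA and 0.31 in ESC, against -0.01 and 0.02 for all genes. The interaction passed with a positive difference for 9 of the 15, against 2.53% of all genes. On the arrays as labelled, the mean of the list per array, lower array first, was 8.47 and 9.57 in RA KD2 and 8.39 and 9.69 in ESC KD2. With 10 arrays, and so 1 KD2 array per state, the list median of KD2 against scrambled cells was 0.48 in RA and 0.35 in ESC. The medians of all genes there were 0.03 and 0.01. The higher level of this list in KD1 stood beside its lower Gata2, Gata3 and Tfap2c and its higher Tead4. The part of the list in these differences was not tested. In RA, KD1 against scrambled cells, the other lists stand beside the same 5.39% higher and 6.69% lower. Of the mesoderm genes Pdgfra (2.86), which extraembryonic endoderm also makes, and Snai1 (1.41) were higher in KD1 and Isl1 (-1.75) was lower. Of 16 naive genes 4 were higher in KD1, Klf4 (1.50), Klf5 (1.38), Tcl1 (1.15) and Tfcp2l1 (0.54), and 3 were lower, Nanog (-1.35), Dppa3 (-0.85) and Fgf4 (-0.82). Klf5 is also a factor of the trophectoderm. Of the surface ectoderm list Sfn (-1.38) and Grhl2 (-0.74) were lower in KD1 and 0 higher. Of the neural list Stmn2 (-0.88) and Dcx (-0.61) were lower and 0 higher. Retinoic acid response genes split, with Cyp26a1 (1.26) and Stra6 (0.80) higher and Cyp26b1 (-1.0) and Dhrs3 (-0.81) lower.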

How the data were processed

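The 12 arrays were 1-colour Affymetrix arrays, each made with 300 ng RNA, per the labels' protocols. The deposited table holds log2 intensities. According to the submitters' processing notes they come from RMA, whose version is not given in the sources used here. The table held 35556 probe sets, of which 21789 had 1 gene symbol in the platform annotation, 1621 had several and 12146 were not listed there. Each gene was read from its brightest probe set with 1 symbol, and older list symbols were matched through the RefSeq table of GRCm38.p6. Promoters came from RefSeq, same build.

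The 8 arrays of scrambled and KD1 cells were fitted with limma 3.58.1 (R 4.3.3; 4 residual and 4.938 prior degrees of freedom), and all 12 arrays for KD2, with an intensity trend. Benjamini-Hochberg adjustment ran over 19938 genes, with calls below 0.05. The number of arrays limits precision. Replicate numbers come from the labels, which name no shared batch. Differences between replicates correlated at 0.141 to 0.633 for the 6 pairs of groups within a state (0.633 in ESC and 0.15 in RA for KD1 with scrambled), so calls that change with the number as a block are given beside the results. Alternatives were other sets of arrays, a replicate block, no trend, a filter on dim genes, a second quantile normalization, mean probe sets and leaving out each array. Named list genes are at most 3 called members per list, by size, for RA against ESC in scrambled cells and KD1 against scrambled cells in RA, or the most changed where none was called. Genes alike in pattern are the 3 of highest correlation, with members and predicted genes (such as Gm, LOC and Rik names) left out. Other list genes are named where a count was 5 or fewer or, as Gata6, Tead1, Tead2, Tead3 and the Prl and cathepsin genes, after their values were seen. The members, lists and alternatives were chosen with earlier results of these data known. Figures used matplotlib 3.10.9.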

Additional observations from a re-analysis of the deposited data

Results flagged for a closer look

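The response of Gata2 to the RA condition differed between KD1 and scrambled cells by the interaction, at -1.55 on the log2 scale (SE 0.24, adjusted p = 0.00793 by limma, 2 arrays per group). Both RA KD1 arrays lay below both RA Scrambled arrays, and the ESC arrays of the lines overlapped.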

How the results depend on the processing

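Only 2 arrays per group were available, and comparisons within an arm left with 1 array assume that it varies like the other groups. Without both KD2 replicate 2 arrays, the counts of called members were those of the 8-array fit in its 5 comparisons, and 6 members in place of 0 passed for RA against ESC in KD2. There Tfap2c turned to -1.91 and Plac1 to 1.60. With all 12 arrays in the fit, whose spread includes the displaced arrays, the differences of KD1 and scrambled cells were the same but fewer members were called: 2 for RA against ESC in KD1, 1 for KD1 against scrambled in RA (Tead4), 0 in ESC and 0 for the interaction; in scrambled cells 4 were called, without Eomes (adjusted p = 0.089) and Tfap2c (adjusted p = 0.101). With the replicate block within each state, 2 members were called for KD1 against scrambled in ESC (Tead4 and Gata3), 5 for the interaction and 6 for KD1 against scrambled in RA. For RA against ESC it gave 7 in KD1, with Eomes added, and 7 in scrambled cells, with Hand1 added, where 50.9% and 51.7% of all genes passed. That block leaves 2 residual degrees of freedom. The block left 0 called members in the KD2 comparisons. Leaving out each array in turn gave 6 to 6 called members for RA against ESC in scrambled cells, 5 to 7 in KD1, 2 to 6 for KD1 against scrambled in RA, 0 to 1 in ESC and 0 to 2 for the interaction. For KD2 it gave 0 to 1 against scrambled in RA, 0 to 0 in ESC and 0 to 0 for RA against ESC. A second quantile normalization gave 7 calls for RA against ESC in KD1, with Eomes added (-0.74, adjusted p = 0.0103), and 4 for KD1 against scrambled in RA, with Eomes (0.71, adjusted p = 0.0357) called and Tfap2c (-0.96, adjusted p = 0.0591) not. No trend, the filter on dim genes, which removed Elf5, and mean probe sets left every count of called members as it was. Elf5 lay below the median of all values on 12 of 12 arrays, where an array of this kind resolves little.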
